A study of Mus musculus with 32 samples.

Results

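Levels of 9 ductal epithelial marker genes were followed in cultured mouse islets: the keratins Krt7, Krt18 and Krt19, the transcription factor Sox9, the secreted protein Spp1, the chloride channel Cftr, the mucin Muc1 and the claudins Cldn4 and Cldn7. They were taken by gene symbol from a table of 36595 genes, as genes known from ducts, and each symbol matched 1 row. No value here set the choice, but earlier results of these data were known when it was made. Of the 9 genes, 8 had enough counts to be tested. Cftr did not pass the filter on low counts, and its values are given without a test.

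Pancreatic ducts are tubes of simple epithelium that carry acinar enzymes to the gut and add a bicarbonate-rich fluid. Their cells hold keratin filaments built from type I chains such as Krt18 and Krt19 paired with type II chains such as Krt7 and Krt8, and they are sealed by claudins at tight junctions. Sox9 maintains duct identity, Cftr moves chloride and bicarbonate across the apical membrane, Muc1 coats that membrane, and Spp1 encodes osteopontin, a secreted phosphoprotein that binds integrins and Cd44. Several of these genes are not restricted to ducts: Krt18 and the claudins belong to simple epithelia in general, and osteopontin is also made by macrophages.

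RNA was poly(A)-selected and sequenced from 32 libraries, 8 in each of 4 groups. The hIAPP islets came from mice whose own gene for islet amyloid polypeptide (IAPP), a beta cell hormone, had been replaced with the amyloid-forming human one by homologous recombination. The mIAPP islets came from wild-type littermates, whose mouse IAPP does not form amyloid. All mice were on the C57BL/6NHsd background, 10 weeks old and of both sexes, and no further allele or agent is named for any group. Islets were freed with collagenase, purified on a gradient, picked by hand, rested overnight at 11.1 mM glucose and then kept for 48 h at 11.1 or 16.7 mM glucose. Each of 8 experiment sets held all 4 groups, so libraries with the same replicate number were taken to belong together. The number of mice behind a set and the zygosity of the hIAPP mice are not given in the sources used here.

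The libraries summed to 16.1 to 43.7 M (mega) estimated counts, and mitochondrially encoded genes took 2.68% to 37.0% of them. A share under 10% was seen in 8 of 8 hIAPP and 5 of 8 mIAPP libraries at 16.7 mM, against 2 of 8 and 3 of 8 at 11.1 mM, so this share moved with glucose and, at 16.7 mM, with genotype. Mouse Iapp, the gene that was replaced, stood at 10904 ± 593 counts per 1000000 (CPM; mean ± SD, n = 8) in hIAPP and 24272 ± 4171 CPM with the mIAPP genotype at 16.7 mM, and at 6694 ± 788 and 11944 ± 2147 at 11.1 mM. It was lower in hIAPP islets at both concentrations, with adjusted p = 4.21e-08 and 4.24e-05 in edgeR's quasi-likelihood test, and was not absent. CPM values were scaled between libraries with edgeR's TMM factors throughout.

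The 9 genes spanned a wide range of levels per kilobase of transcript, and those usually taken to define ducts were at the bottom. In hIAPP islets at 16.7 mM, Spp1 reached 239 CPM per kb, Krt18 143, Krt7 127, Cldn7 67.5 and Cldn4 36.6. Krt19 followed at 2.10, Muc1 at 1.06, Sox9 at 0.222 and Cftr at 0.0159 CPM per kb. Neighbours in this order overlapped between libraries for Spp1 and Krt18, Krt18 and Krt7, and Krt19 and Muc1. At 11.1 mM Krt18 had the highest mean per kb of the 9 in both genotypes, and its libraries overlapped those of Krt7. In CPM without scaling for length Krt7 was higher, at 300 against 128 (hIAPP) and 315 against 132 (mIAPP). Mean Spp1 was 35.9 CPM per kb in hIAPP islets, between Cldn7 and Cldn4, and 28.6 in mIAPP islets, below both. The hIAPP libraries ran from 9.92 to 138 CPM per kb, set 1 being the highest, and Spp1 overlapped both claudins in both genotypes. Median Spp1 was 32.1 CPM in hIAPP and 38.8 CPM in mIAPP islets, so the order was not shown to differ between genotypes.

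The label of ductal marker held unevenly. Krt19, Sox9, Cftr and Muc1 together gave 6.71 ± 1.56 CPM (hIAPP) and 7.24 ± 3.79 CPM (mIAPP) at 16.7 mM, and 8.40 ± 6.72 and 8.63 ± 2.47 CPM at 11.1 mM. The 9 genes summed to 1251 ± 298 and 919 ± 129 CPM at 16.7 mM, and to 615 ± 120 and 622 ± 74.7 CPM at 11.1 mM, so nearly all of the summed signal was Krt7, Krt18, Spp1 and the claudins. In RNA from whole islets, fewer cells of a type and less RNA per cell cannot be told apart, and nor can the cell type that supplied a transcript.

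**Figure D1:**
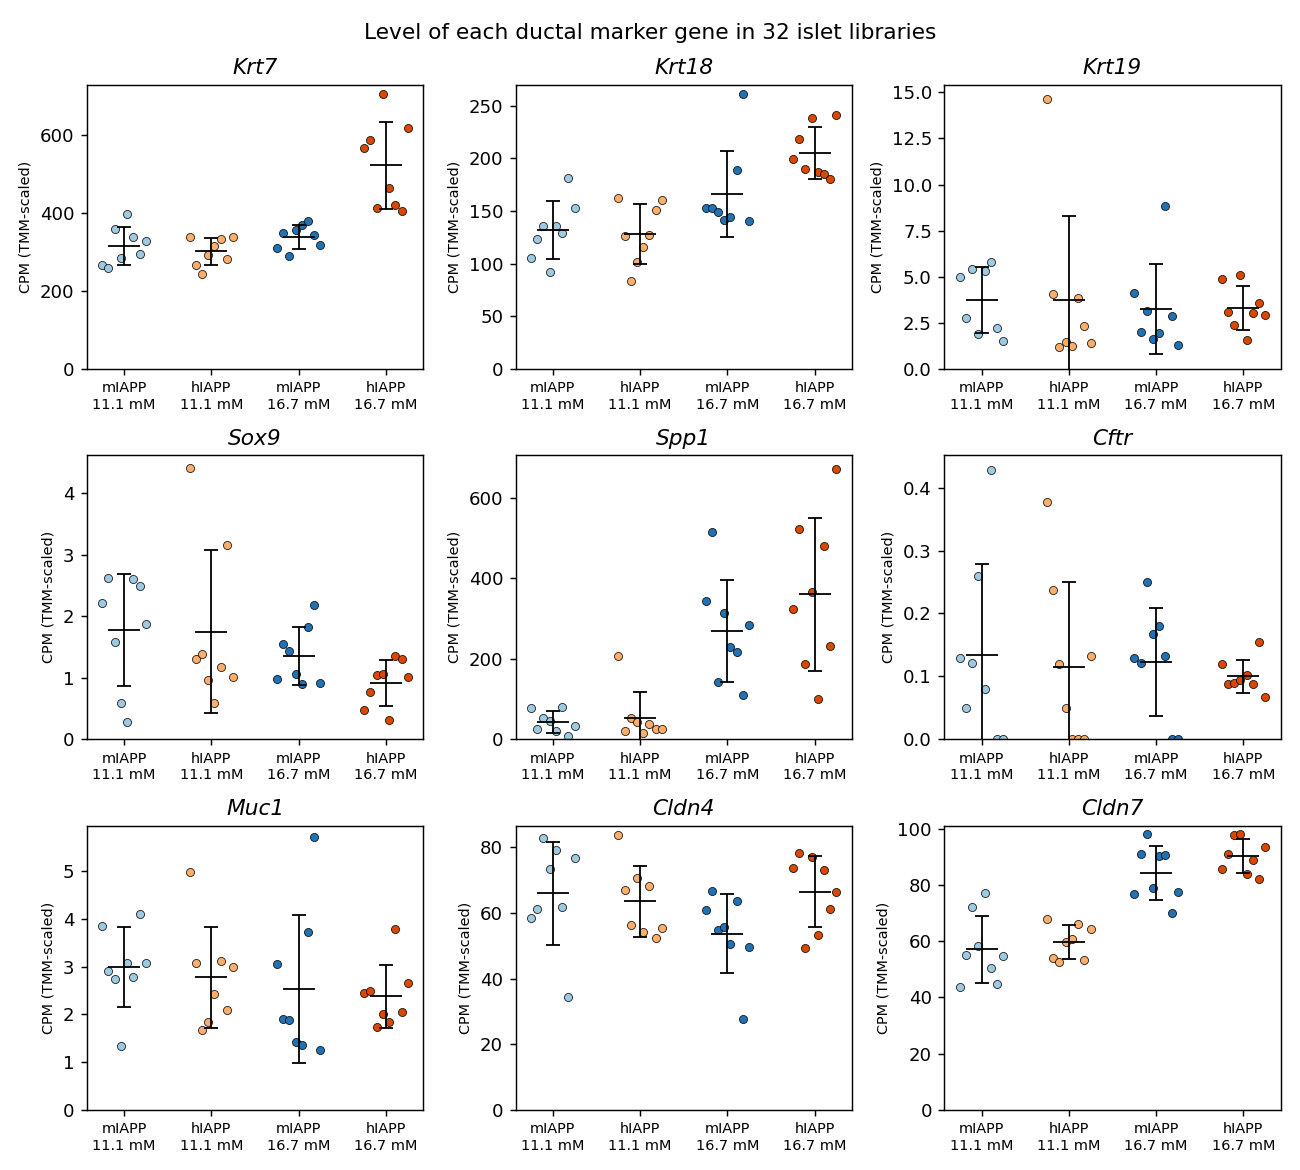
Level of each of the 9 genes in TMM-scaled CPM (linear axis from 0) in the 4 groups; points are libraries, horizontal lines the mean and bars the SD over 8 libraries. Krt7 stands apart in hIAPP islets at 16.7 mM, Spp1 and Cldn7 are high at 16.7 mM in both genotypes, and Krt19 and Spp1 each have an isolated high library among hIAPP islets at 11.1 mM.

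To show the sequence just before the start sites of the members with the firmest changes, promoter windows were taken from RefSeq (GRCm38.p6), in which 7 of the 9 genes had an entry. The windows shown are those of Spp1, Krt7, Krt18 and Cldn7, the members that were higher at 16.7 mM in hIAPP islets. All are on the + strand, at chr5:104434861-104435110, chr15:101412153-101412401, chr15:102027966-102028179 and chr11:69964529-69964778. They stop before any coding-transcript exon within the window. Capitals mark matches on either strand to the letters searched.
Spp1: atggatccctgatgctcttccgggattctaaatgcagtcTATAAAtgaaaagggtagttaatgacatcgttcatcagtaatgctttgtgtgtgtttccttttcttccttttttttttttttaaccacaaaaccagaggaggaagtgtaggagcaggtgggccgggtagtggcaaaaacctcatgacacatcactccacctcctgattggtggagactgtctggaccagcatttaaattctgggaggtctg
Krt7: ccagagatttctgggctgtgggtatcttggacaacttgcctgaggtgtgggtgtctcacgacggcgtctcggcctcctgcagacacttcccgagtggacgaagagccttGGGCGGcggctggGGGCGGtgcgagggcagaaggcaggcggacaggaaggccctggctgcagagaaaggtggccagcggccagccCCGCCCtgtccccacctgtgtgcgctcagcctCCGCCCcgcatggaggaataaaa
Krt18: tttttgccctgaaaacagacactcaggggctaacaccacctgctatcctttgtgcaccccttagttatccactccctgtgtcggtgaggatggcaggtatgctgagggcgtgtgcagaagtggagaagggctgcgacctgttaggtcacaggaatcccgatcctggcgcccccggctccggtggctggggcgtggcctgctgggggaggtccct
Cldn7: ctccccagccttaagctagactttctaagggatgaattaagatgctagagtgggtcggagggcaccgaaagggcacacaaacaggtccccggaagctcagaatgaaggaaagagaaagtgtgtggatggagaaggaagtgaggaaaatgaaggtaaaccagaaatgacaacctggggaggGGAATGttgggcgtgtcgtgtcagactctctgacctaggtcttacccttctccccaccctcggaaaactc

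Each window was searched on both strands for the AP-1 letters TGANTCA, the E-box CACGTG, the GC box GGGCGG, the TATA letters TATAAA, the Notch effector RBPJ core TGGGAA and the YAP partner TEAD letters GGAATG. Matches of different motifs can overlap, and none did in the 4 windows shown. Among 32851 RefSeq windows of 250 bases, they were present in 6.75%, 6.02%, 32.7%, 12.4%, 21.6% and 12.6%. The 4 windows shown shared no motif: Krt7 held 4 GC boxes, Spp1 held TATAAA starting 211 bases before its start site, Cldn7 held GGAATG at 70 bases, and Krt18 held none of the 6. RefSeq gives Spp1 and Cldn7 a further start downstream, whose windows are not shown: that of Spp1 held none of the 6, and that of Cldn7 held a GC box and TGGGAA. The Spp1 start used here lies just before that of GENCODE, at 104435118. The Krt7 window lies inside the gene as GENCODE gives it, from 101411043, so it is not the sequence before the earliest annotated start. A match describes letters only and shows no binding.

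The study varied genotype and glucose, and 5 comparisons follow: hIAPP against mIAPP islets at each glucose level, 16.7 against 11.1 mM glucose in each genotype, and the interaction, which is the glucose change in hIAPP islets minus that in mIAPP islets. The comparisons share groups, so a high value in hIAPP islets at 16.7 mM enters several of them. A gene was called where the Benjamini-Hochberg adjusted p over 16428 genes was under 0.05 in edgeR's quasi-likelihood fit with the set as a block. Changes below are log2 fold changes ± SE from that fit.

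Between genotypes at 16.7 mM, 1 of the 8 tested members was called, Krt7, which was higher in hIAPP islets. Of all genes 20.5% were called there, 9.27% higher and 11.2% lower, so 1 of 8 is not above the background share. The median change of the 8 members was 0.30, and 7 of them had positive values, beside a median of -0.0076 over all genes. At 11.1 mM no member was called (the smallest unadjusted p was 0.359, and the DESeq2 and limma voom fits called none either). The background there was 0.128%, with 0.11% higher and 0.0183% lower, and the median of the members was -0.046.

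Raising glucose moved more of the set. In hIAPP islets 4 members rose (Krt7, Krt18, Spp1 and Cldn7) and 1 fell (Sox9), against a background of 65.5% of all genes called, 32.2% higher and 33.3% lower. In mIAPP islets 3 rose (Krt18, Spp1 and Cldn7) and 1 fell (Cldn4), against 47.5% called, 24.9% higher and 22.7% lower. Shares of called members were near these backgrounds, which also apply to the counts of the gene lists below. The median change was 0.42 in hIAPP and -0.074 in mIAPP islets. For the interaction 1 member was called, Krt7, where 3.12% of all genes were, 2.17% higher and 0.95% lower.

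**Figure D2:**
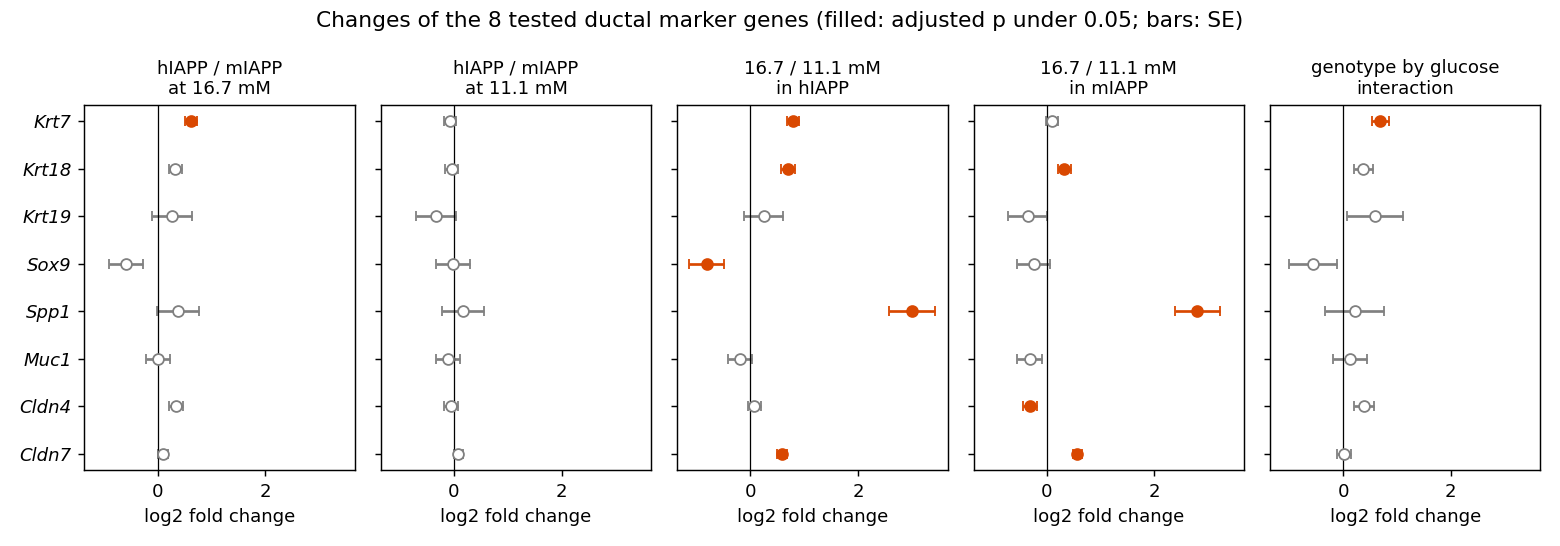
Log2 fold change with its SE (bars) for the 8 tested genes in the 5 comparisons; filled symbols have an adjusted p under 0.05. Spp1 carries the largest changes, near 3 with glucose in both genotypes, and Krt7 is filled for genotype at 16.7 mM, for glucose in hIAPP islets and for the interaction.

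Markers of other islet cell types moved with the same comparisons, and their part in the members' changes was not tested. With glucose, 14 of 14 endothelial markers, 13 of 15 stellate and fibroblast markers, 11 of 15 macrophage markers and 12 of 15 beta cell markers fell in hIAPP islets, while 2 beta cell markers rose. Of all genes 33.3% fell and 32.2% rose there. In mIAPP islets 9 endothelial, 6 stellate and fibroblast, 12 macrophage and 7 beta cell markers fell, and 2 beta cell markers rose. The shares of all genes there were 22.7% lower and 24.9% higher. Of 19 tested markers of acinar cells, the other exocrine type, 2 rose and 2 fell in hIAPP islets and 1 rose and 1 fell in mIAPP islets, with median changes of -0.38 and -0.56. None was called between genotypes, with medians of -0.57 at 16.7 mM and -0.77 at 11.1 mM. Between genotypes at 16.7 mM, 8 endothelial, 10 beta cell, 2 stellate and fibroblast and 2 macrophage markers were lower in hIAPP islets, and 2 macrophage markers were higher. Among all genes 11.2% were lower and 9.27% higher in that comparison. For the interaction 2 beta cell markers and 1 macrophage marker were called, all lower, where 0.95% of all genes were lower.

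Smaller marker lists moved in part, beside 65.5% (hIAPP) and 47.5% (mIAPP) of all genes called with glucose. Of 10 alpha cell markers 3 rose and 1 fell with glucose in hIAPP islets, and 2 rose and 2 fell in mIAPP islets. Of 7 delta and PP cell markers 2 rose and 2 fell in hIAPP and 2 fell in mIAPP islets. Of 8 Schwann cell markers 3 fell in hIAPP islets, and 2 fell and 1 rose in mIAPP islets. Of 3 mesothelial markers tested, 3 fell in hIAPP and 2 in mIAPP islets. Summed levels of acinar markers ranged from 52.9 to 386 CPM among hIAPP islets at 11.1 mM, where 1 of the 24 listed genes was at 0 in all 8 libraries, and from 104 to 228 CPM at 16.7 mM. A large part of these sums was 1 gene, Bhlha15, which rose with glucose in hIAPP islets by 1.44 ± 0.12 (adjusted p = 4.36e-10). It averaged 35.8 CPM of a mean sum of 132 CPM at 11.1 mM, and 96.5 of 164 CPM at 16.7 mM. The acinar sums are therefore no measure of the enzyme genes alone.

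Krt7, a type II keratin of simple epithelia, was high in hIAPP islets at 16.7 mM and level across the other groups. Its lowest, median and highest libraries were 405, 514 and 704 CPM in hIAPP islets at 16.7 mM. With the mIAPP genotype they were 288, 345 and 378 CPM at that concentration. At 11.1 mM they were 242, 303 and 337 CPM (hIAPP) and 258, 311 and 397 CPM (mIAPP). Every hIAPP library at 16.7 mM was thus above every library of the other 3 groups.

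At 16.7 mM Krt7 in hIAPP islets was 1.54 times the mIAPP level, a change of 0.62 ± 0.11 (adjusted p = 0.000298), in 8 of 8 sets. The groups did not overlap, as for 2.98% of all genes. Within hIAPP islets it rose 1.73-fold with glucose, by 0.79 ± 0.11 (adjusted p = 1.13e-06), in 8 of 8 sets and again without overlap, as for 22.7% of genes. In mIAPP islets the change with glucose was 0.10 ± 0.11 (adjusted p = 0.476), higher in 5 of 8 sets. Between genotypes at 11.1 mM it was -0.075 ± 0.11 (adjusted p = 0.892), where 0.0913% of all genes and no member had groups that did not overlap.

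The test of the difference itself, the interaction, gave 0.69 ± 0.16 for Krt7 (adjusted p = 0.0103), with a larger glucose change in hIAPP than in mIAPP islets in 8 of 8 sets. With the mitochondrial share as a covariate it was 0.62 ± 0.17 (adjusted p = 0.0781), and among libraries under 10% mitochondrial counts 1.07 ± 0.25 (adjusted p = 0.144), which ends the call. The genotype difference at 16.7 mM stayed past the threshold under both, at 0.55 ± 0.13 (adjusted p = 0.0126) and 0.71 ± 0.14 (adjusted p = 0.0107).

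Krt18, the type I keratin that pairs with Krt8 in simple epithelia, rose with glucose in both genotypes. Its lowest, median and highest libraries at 16.7 mM were 180, 195 and 241 CPM in hIAPP islets and 140, 151 and 261 CPM in mIAPP islets. At 11.1 mM they were 83.1, 127 and 163 CPM in hIAPP islets and 92.2, 132 and 182 CPM in mIAPP islets. In hIAPP islets the glucose groups did not overlap, as for 22.7% of all genes. In mIAPP islets they did, and there 4.05% of all genes had groups that did not overlap.

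The rise of Krt18 was 0.70 ± 0.13 in hIAPP islets (1.63-fold, adjusted p = 3.4e-05), in 8 of 8 sets. In mIAPP islets it was 0.33 ± 0.13 (1.26-fold, adjusted p = 0.0335), in 7 of 8 sets. That call was lost without any of sets 1, 2, 4, 6 and 7 (0.27 to 0.33), without the block and with other size factors. It was also lost when only the mIAPP library of set 7 at 16.7 mM was left out (0.25, adjusted p = 0.0938) and among libraries under 10% mitochondrial counts (0.29, adjusted p = 0.162). The interaction was 0.37 ± 0.18 (adjusted p = 0.261), so the sizes of the rise were not shown to differ. Between genotypes at 16.7 mM the value was 0.33 ± 0.13 (adjusted p = 0.0609), higher in 6 of 8 sets, and it passed the threshold without the mIAPP library of set 7 (0.40, adjusted p = 0.0342). That library held the highest mitochondrial share, 37.0%, and the highest Krt18 of all 32, 261 CPM.

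The partner chain Krt8 was called in the same 3 comparisons as Krt7, and with glucose in mIAPP islets too. Means were 177 CPM (hIAPP) and 117 CPM (mIAPP) at 16.7 mM, and 85.0 and 86.7 CPM at 11.1 mM. Its genotype difference at 16.7 mM was 0.60 ± 0.11 (adjusted p = 0.000536), its glucose change was 1.06 ± 0.11 in hIAPP islets (adjusted p = 1.78e-08) and 0.43 ± 0.11 for mIAPP (adjusted p = 0.00278), and its interaction was 0.63 ± 0.16 (adjusted p = 0.0265).

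Among 12 tested genes of other keratins and the desmosomal plaques that anchor them, 5 were higher in hIAPP islets at 16.7 mM and none was lower, with a median change of 0.31, where 9.27% of all genes were higher and 11.2% lower. With glucose 6 rose and 2 fell in hIAPP islets, and 4 rose and 2 fell in mIAPP islets, shares called that are near the 65.5% and 47.5% of all genes. The desmosomal cadherin Dsc2 rose by 1.70 ± 0.20 for hIAPP (adjusted p = 9.36e-08) and 1.22 ± 0.20 for mIAPP (adjusted p = 2.78e-05), and its partner Dsg2 by 0.96 ± 0.12 (adjusted p = 2.69e-07) and 0.68 ± 0.12 (adjusted p = 7.54e-05). Desmoplakin, Dsp, which ties keratins to the plaque, was 0.51 ± 0.15 higher in hIAPP islets at 16.7 mM (adjusted p = 0.0172). Envoplakin, Evpl, fell by 0.66 with glucose in mIAPP islets (adjusted p = 7.64e-07). In hIAPP islets its means were also lower at 16.7 mM, at 9.63 against 14.8 CPM.

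Krt19, the keratin most used to mark ducts, was low and uneven. Median levels were 3.08 CPM (hIAPP) and 2.41 CPM (mIAPP) at 16.7 mM, and 1.87 and 3.88 CPM at 11.1 mM. Its libraries ran from 1.57 to 5.10 and 1.31 to 8.82 CPM at 16.7 mM, and from 1.17 to 14.6 and 1.49 to 5.79 CPM at 11.1 mM, and all groups overlapped. No comparison was called: changes ran from -0.35 ± 0.36 with glucose in mIAPP islets (95% interval -1.10 to 0.39) to an interaction of 0.60 ± 0.52 (-0.47 to 1.67). In the comparisons where Krt7 was called, the Krt19 intervals held the Krt7 change. They were -0.48 to 1.02 between genotypes at 16.7 mM (Krt7 0.62) and -0.51 to 1.01 with glucose in hIAPP islets (Krt7 0.79). The interaction of Krt7 was 0.69.

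Spp1, encoding osteopontin, had the largest glucose changes of the 8 tested members. At 16.7 mM its lowest, median and highest libraries were 101, 345 and 672 CPM in hIAPP islets and 111, 257 and 516 CPM in mIAPP islets. At 11.1 mM they were 14.9, 32.1 and 208 CPM in hIAPP islets and 7.73, 38.8 and 80.0 CPM in mIAPP islets. Libraries of 1 group differed by 4.66 to 13.9 times, and yet every set held more Spp1 at 16.7 than at 11.1 mM.

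Spp1 rose 8.07-fold with glucose in hIAPP islets (3.01 ± 0.43, adjusted p = 2.73e-06). The mIAPP rise was 6.96-fold (2.80 ± 0.42, adjusted p = 1.25e-05), and both were seen in 8 of 8 sets. In mIAPP islets the glucose groups did not overlap, as for 4.05% of all genes. In hIAPP islets they overlapped only through the 11.1 mM library of set 1, at 208 CPM, and without it the rise was 3.34 ± 0.40 (adjusted p = 3.64e-07). The interaction was 0.21 ± 0.55, with a 95% interval of -0.93 to 1.36, so differences between the genotypes within that range, in either direction, were not excluded. Between genotypes the values were 0.38 ± 0.39 at 16.7 mM (adjusted p = 0.491) and 0.17 ± 0.40 at 11.1 mM (adjusted p = 0.935).

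Macrophages are among the cells that also make osteopontin, and the part of other cell types in the Spp1 change was not tested. The summed level of macrophage markers was 106 to 216 CPM in hIAPP and 105 to 237 in mIAPP islets at 16.7 mM, but 280 to 482 and 220 to 423 CPM at 11.1 mM, with 16 of 16 genes detected in every group. With the mitochondrial share as a covariate the rise was 1.99 ± 0.61 for hIAPP (adjusted p = 0.0248) and 2.35 ± 0.44 for mIAPP (adjusted p = 0.000285). Among libraries under 10% mitochondrial counts it was 2.31 ± 0.41 and 2.58 ± 0.35.

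**Figure D3:**
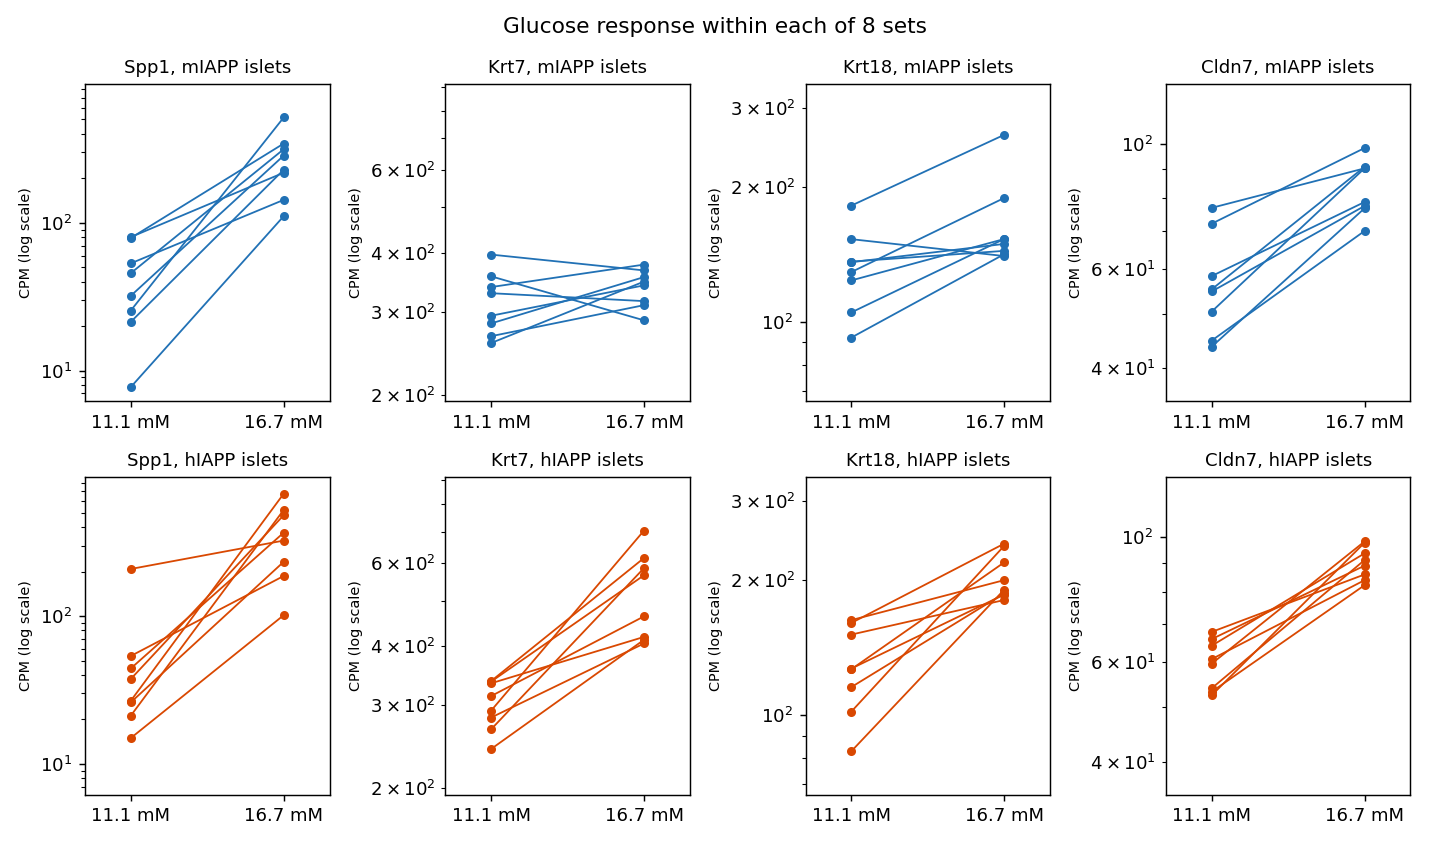
Level of Spp1, Krt7, Krt18 and Cldn7 in TMM-scaled CPM (log axes, shared by the 2 panels of a gene) at 11.1 and 16.7 mM glucose; each line joins the 2 libraries of a set, with mIAPP islets above and hIAPP islets below. Spp1 and Cldn7 rise in 8 of 8 sets of both genotypes, and Krt7 rises in 8 of 8 hIAPP sets but in 5 of 8 mIAPP sets.

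Of 13 tested receptors of osteopontin and proteases that cleave it, 4 rose and 3 fell with glucose in hIAPP islets, and 3 rose and 3 fell in mIAPP islets. Among all genes 65.5% and 47.5% were called there. Integrin chains of the list moved in both directions. Itgav rose by 0.91 ± 0.10 for hIAPP (adjusted p = 4.36e-08) and 0.85 ± 0.10 for mIAPP (adjusted p = 3.27e-07), and Itgb1 by 0.82 ± 0.14 (adjusted p = 1.73e-05) and 0.66 ± 0.14 (adjusted p = 0.000411). Itgb3 fell by 0.67 in hIAPP islets (adjusted p = 0.000595) and Itga5 by 0.74 in mIAPP islets (adjusted p = 0.00273). Means in the other genotype were also lower at 16.7 mM. For Itgb3 they were 5.74 against 7.95 CPM (mIAPP), and for Itga5 12.7 against 15.5 CPM (hIAPP). Cd44, a hyaluronan receptor that also binds osteopontin, rose by 0.64 ± 0.15 (adjusted p = 0.000526) and 0.87 ± 0.15 (adjusted p = 4.44e-05). Between genotypes at 16.7 mM 3 were higher: the urokinase gene Plau by 0.97 ± 0.18 (adjusted p = 0.000433), Itgb1 by 0.45 ± 0.14 (adjusted p = 0.0233), and Itgb5 by 0.28 (adjusted p = 0.0477). The share of all genes called higher there was 9.27%.

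Cldn7, a claudin of the lateral membrane of many epithelia, rose with glucose by nearly the same amount in both genotypes. At 16.7 mM its lowest, median and highest libraries were 82.1, 89.9 and 98.1 CPM in hIAPP islets and 70.0, 84.6 and 98.2 CPM in mIAPP islets. At 11.1 mM they were 52.4, 60.2 and 67.8 CPM in hIAPP islets and 43.7, 54.9 and 76.9 CPM in mIAPP islets. The glucose groups did not overlap in hIAPP islets, as for 22.7% of all genes. In mIAPP islets they overlapped at 70.0 to 76.9 CPM, and there 4.05% of all genes had groups that did not overlap.

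The change of Cldn7 was 0.59 ± 0.09 in hIAPP islets (1.51-fold, adjusted p = 3.65e-06) and 0.57 ± 0.09 for mIAPP (1.48-fold, adjusted p = 1.41e-05), seen in 8 of 8 sets both times. The interaction was 0.021 ± 0.13, with a 95% interval of -0.24 to 0.28. Between genotypes it was 0.10 ± 0.09 at 16.7 mM (adjusted p = 0.402) and 0.084 ± 0.09 at 11.1 mM (adjusted p = 0.844). Its biological coefficient of variation in the fit, 13.0%, was the lowest of the 8, against 51.7% for Spp1. Relative to the trend fitted for genes of its level, 17.0%, the Spp1 value was at percentile 98.7 of all tested genes.

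Cldn4, a claudin that tightens the barrier to ions, went another way. Its lowest, median and highest libraries were 49.4, 69.7 and 78.2 CPM in hIAPP and 27.6, 55.2 and 66.7 CPM in mIAPP islets at 16.7 mM, and 52.3, 61.6 and 83.7 and 34.5, 67.5 and 82.9 CPM at 11.1 mM. In mIAPP islets it fell by 0.32 with glucose (SE 0.13, adjusted p = 0.0435), lower in 5 of 8 sets, but not in hIAPP islets, where the change was 0.074 ± 0.13 (adjusted p = 0.618). The interaction, 0.39 ± 0.18 (adjusted p = 0.244), did not pass, so the genotypes were not shown to differ. The fall missed the threshold without the block, with no filter on low counts, and without any of sets 3, 4, 5 and 8 (-0.32 to -0.26). It also missed it when only the mIAPP library of set 7 at 16.7 mM was left out (-0.25, adjusted p = 0.0951). The genotype difference at 16.7 mM was 0.34 ± 0.13 (adjusted p = 0.0589), higher in 7 of 8 sets, and it passed with DESeq2 (adjusted p = 0.0325).

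Of 23 other epithelial junction genes tested, 16 rose and 1 fell with glucose in hIAPP islets, with a median change of 0.45, where 32.2% of all genes rose and 33.3% fell. In mIAPP islets 11 rose and 2 fell, with a median of 0.29, beside 24.9% and 22.7% of all genes. Occludin, Ocln, rose by 1.40 ± 0.18 (adjusted p = 2.89e-07) and 1.20 ± 0.18 (adjusted p = 6.74e-06), and Cldn23 by 1.88 ± 0.20 (adjusted p = 1.73e-08) and 1.36 ± 0.20 (adjusted p = 4.82e-06). The scaffold gene Tjp3 fell by 0.77 in mIAPP islets (adjusted p = 6.94e-06), and its hIAPP means were also lower at 16.7 mM, at 11.3 against 16.7 CPM. At 16.7 mM 5 were higher in hIAPP islets, among them the adhesion gene Epcam at 0.56 ± 0.11 (adjusted p = 0.00101) and alpha-catenin, Ctnna1, at 0.50 ± 0.12 (adjusted p = 0.00548). The 1 that was lower was Cldn3, at -0.62 ± 0.16 (adjusted p = 0.008), where 9.27% of all genes were higher and 11.2% lower.

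Sox9, the transcription factor of duct and progenitor identity, was near 1 CPM, with 7 to 105 counts per library. Its lowest, median and highest libraries were 0.308, 1.03 and 1.35 CPM in hIAPP and 0.900, 1.24 and 2.19 CPM in mIAPP islets at 16.7 mM, and 0.596, 1.24 and 4.40 and 0.280, 2.04 and 2.62 CPM at 11.1 mM. All groups overlapped. It fell by 0.81 with glucose in hIAPP islets (SE 0.32, adjusted p = 0.0293), yet was lower in only 5 of 8 sets. Without the 11.1 mM library of set 1 the change was -0.50 ± 0.28 (adjusted p = 0.123), and with the mitochondrial share as a covariate -0.11 ± 0.49 (adjusted p = 0.911). The call was also lost without any of sets 1, 2 and 7 (-0.81 to -0.42) and among libraries under 10% mitochondrial counts (-0.30, adjusted p = 0.615). In mIAPP islets it was -0.25 ± 0.31 (adjusted p = 0.537).

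Of 16 tested genes of the Notch and YAP pathways, which act on Sox9 in ducts, 2 rose and 8 fell with glucose in hIAPP islets, where 32.2% of all genes rose and 33.3% fell. In mIAPP islets 2 rose and 5 fell, beside 24.9% and 22.7% of all genes. The median changes were -0.37 and -0.42, beside -0.024 and -0.026 over all genes. The transcription factor gene Sox4 changed by -0.75 ± 0.13 (adjusted p = 2.86e-05) in hIAPP islets and by -0.60 ± 0.13 (adjusted p = 0.000662) for mIAPP. The Notch ligand Jag1 fell by 0.61 in hIAPP islets (adjusted p = 0.000439), and its mIAPP means were 10.3 CPM at 16.7 mM and 12.5 CPM at 11.1 mM. Tead1, the DNA-binding partner of YAP, rose by 0.57 (adjusted p = 0.000116) and 0.45 (adjusted p = 0.00233). Between genotypes at 16.7 mM only Notch2 was called, at 0.77 ± 0.21 (adjusted p = 0.0128), beside 20.5% of all genes.

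Muc1, a membrane mucin of the apical surface, had no called change in any comparison. Its lowest, median and highest libraries were 1.73, 2.25 and 3.79 CPM in hIAPP and 1.25, 1.90 and 5.72 CPM in mIAPP islets at 16.7 mM, and 1.68, 2.71 and 4.99 and 1.33, 3.00 and 4.11 CPM at 11.1 mM, and all groups overlapped. Changes with glucose were -0.20 ± 0.22 for hIAPP (adjusted p = 0.446) and -0.32 ± 0.23 for mIAPP (adjusted p = 0.251). With the set 7 library that gave the 5.72 CPM left out, the change in mIAPP islets was -0.56 ± 0.20 (adjusted p = 0.0228).

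Other mucins and the enzymes that build their O-glycans included larger changes. Of 11 tested, 4 were higher in hIAPP islets at 16.7 mM and none was lower, and with glucose 6 rose and 1 fell in hIAPP and 4 rose and 1 fell in mIAPP islets. Between genotypes at 16.7 mM 9.27% of all genes were higher and 11.2% lower. The shares called with glucose were near the 65.5% and 47.5% of all genes. Muc4, another membrane mucin, averaged 133 ± 38.1 CPM (hIAPP) and 70.2 ± 29.3 CPM (mIAPP) at 16.7 mM, and 59.7 ± 20.7 and 58.7 ± 29.7 CPM at 11.1 mM. Its genotype difference at 16.7 mM was 1.01 ± 0.19 (adjusted p = 0.000659), and its interaction was 0.96 ± 0.27 (adjusted p = 0.0511). C1galt1c1, the chaperone of the core 1 enzyme, rose with glucose by 1.97 ± 0.24 for hIAPP (adjusted p = 1.66e-07) and 1.72 ± 0.24 for mIAPP (adjusted p = 2.89e-06). The branching enzyme Gcnt1 was 0.96 ± 0.18 higher in hIAPP islets at 16.7 mM (adjusted p = 0.000605).

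Cftr was barely detected. It had 0 to 12 counts per library, with totals of 28 and 31 over the 8 hIAPP and 8 mIAPP libraries at 16.7 mM, and 24 and 30 at 11.1 mM. No count was found in 0, 2, 3 and 2 libraries of those groups, and the limit that a count of 0 allows, 3 counts, was 0.0938 to 0.286 CPM in these 7 libraries. The highest library, a mIAPP library of set 6 at 11.1 mM, reached 0.429 CPM. At this depth no difference in Cftr was tested.

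Among other genes of duct fluid and bicarbonate secretion, the changes had mixed directions. Of 14 tested, 1 was higher and 4 were lower in hIAPP islets at 16.7 mM, and 4 rose and 5 fell with glucose in hIAPP and 3 rose and 4 fell in mIAPP islets. Background shares were 9.27% higher and 11.2% lower at 16.7 mM, and 65.5% (hIAPP) and 47.5% (mIAPP) called with glucose. The sodium pump subunit Atp1b1 rose by 1.09 ± 0.12 (adjusted p = 3.21e-08) and 1.05 ± 0.12 (adjusted p = 1.46e-07), and the cotransporter Slc12a2 by 0.73 (adjusted p = 0.000302) and 0.84 (adjusted p = 0.000146). The water channel Aqp1 was lower in hIAPP islets at 16.7 mM, at -1.23 ± 0.32 (adjusted p = 0.00827). It is also expressed by endothelial cells, whose summed markers were 28.9 to 82.8 CPM in hIAPP and 55.9 to 190 CPM in mIAPP islets at that concentration, and their part in the result was not tested.

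Across 23 further tested duct genes, 6 were higher and 3 lower in hIAPP islets at 16.7 mM, 10 rose and 8 fell with glucose in hIAPP islets, 7 rose and 6 fell in mIAPP islets, and 3 had a positive interaction. Background shares were 9.27% higher and 11.2% lower at 16.7 mM, and 2.17% with a positive interaction. With glucose they were 65.5% (hIAPP) and 47.5% (mIAPP) called. This duct list overlaps the keratin, junction and secretion lists. Prom1, an apical membrane glycoprotein, showed 294 ± 42.2 and 189 ± 28.8 CPM at 16.7 mM and 118 ± 16.8 and 105 ± 12.1 CPM at 11.1 mM in hIAPP and mIAPP islets. Its genotype difference at 16.7 mM was 0.64 ± 0.08 (adjusted p = 2.41e-06) and its interaction 0.47 ± 0.11 (adjusted p = 0.018). Elf3, an epithelial transcription factor, had an interaction of 0.73 ± 0.18 (adjusted p = 0.0197). Pkhd1, a protein of the primary cilium, was 0.93 ± 0.17 higher in hIAPP islets at 16.7 mM (adjusted p = 0.000383). Dcdc2a fell by 0.68 with glucose in hIAPP (adjusted p = 2.24e-07) and by 0.43 for mIAPP (adjusted p = 0.000202).

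A hIAPP library at 11.1 mM, that of set 1, stood apart for these genes. It was the highest of its group for 8 of the 9 and the second highest for Krt7, and the excess was uneven. Krt19 was 14.6 CPM against a median of 1.44 in the other 7 libraries, a ratio of 10.1, and Spp1 was 208 against 26.7 CPM, a ratio of 7.79. Sox9 was 4.40 against 1.17 CPM and Muc1 4.99 against 2.42 CPM. Cldn4 was 83.7 against 56.2 CPM, Krt18 1.29 times, Krt7 1.15 times and Cldn7 1.14 times the median of the others.

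Cftr had 9 counts there, at 0.377 CPM against a median of 0.0497, a ratio of 7.59 that rests on few counts. Krt19, Spp1, Cftr and Sox9 thus had the highest ratios in that library, and Krt18, Krt7 and Cldn7 the lowest. Summed markers of other cell types lay within the range of the other 7 in the same library: acinar markers were 134 CPM, where those ran from 52.9 to 386, macrophage markers 420 CPM (280 to 482) and endothelial markers 141 CPM (96.7 to 268). Without this library, Krt19 changed by 0.64 ± 0.33 with glucose in hIAPP islets (adjusted p = 0.0935), beside 0.25 ± 0.37 with it. The Spp1 difference between genotypes at 11.1 mM turned from 0.17 to -0.21, neither being called.

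**Figure D4:**
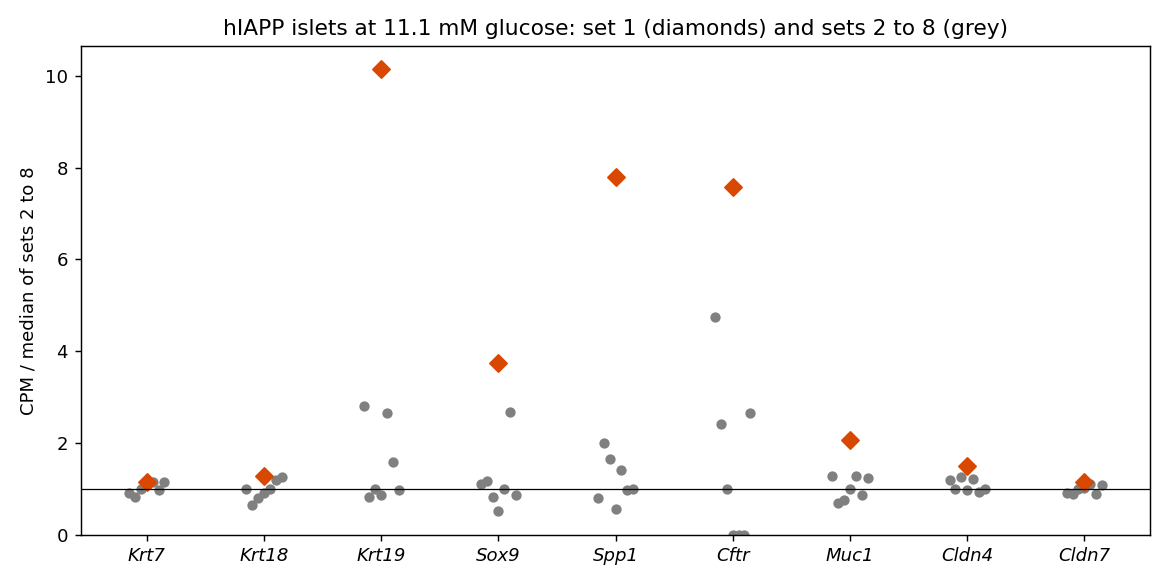
CPM of each gene in the 8 hIAPP libraries at 11.1 mM glucose, divided by the median of sets 2 to 8 (linear axis; line at 1); the diamond is set 1 and grey points are sets 2 to 8. Set 1 lies at 10.1 for Krt19 and 7.79 for Spp1, and within the spread of the others or just above it for Krt7, Krt18 and Cldn7.

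How the members varied together was described by Pearson's r of log2(CPM + 0.5) over the 32 libraries, which share sets, groups and depth. Krt7 and Krt18 had r = 0.76, and 0.74 after the means of groups and sets were removed. Spp1 and Cldn7 had 0.77 over all libraries but 0.25 after that removal, while Cldn4 and Cldn7 had 0.17 before and 0.68 after. Krt18 and Muc1 had 0.31 and 0.75. Sox9 and Krt7 had -0.41 and 0.085. Pairs therefore differed in whether they moved with the groups, within them, or both.

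Levels also followed the mitochondrial share in different directions: r was -0.70 for Cldn7, -0.59 for Spp1 and -0.56 for Krt7, but 0.60 for Sox9 and 0.58 for Muc1. After the means of groups and sets were removed, these were -0.25, -0.38, -0.18, 0.40 and 0.43, and Cldn4 had -0.57, beside -0.39 before. Since that share moved with glucose and genotype, its part in these relations was not tested.

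For each of the 8 members at a mean of 1 CPM or more, the genes most like it in profile were taken by the same measure. They were Sprr1a (0.92), Lmo1 (0.92) and Adam15 (0.91) for Krt7, and Ly6e (0.93), Tmem179 (0.93) and Gapdh (0.90) for Krt18. For Krt19 they were the hemidesmosome integrin Itgb4 (0.80), Scara3 (0.73) and the duct protease Mmp7 (0.68), and for Sox9 the cadherin Cdh6 (0.83), Rimklb (0.79) and Ptn (0.78). Spp1 was most like Dusp4 (0.91), Cthrc1 (0.90) and Nfil3 (0.90), Muc1 like Sfn (0.81), Vill (0.80) and Litaf (0.78), and Cldn4 like Ptk2b (0.81), Csf1 (0.81) and Tap2 (0.80). Cldn7 was most like Sec61b (0.94), Ssr2 (0.94) and Swi5 (0.93), of which the former pair act in protein entry to the endoplasmic reticulum.

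After the means of groups and sets were removed, the closest genes were Krt8 for Krt7 (0.86), Tmem179 for Krt18 (0.91), Itgb4 for Krt19 (0.85), Cdh6 for Sox9 (0.80) and the Wnt receptor gene Fzd1 for Spp1 (0.76). For Muc1 it was Gpt (0.86), for Cldn4 Ddx47 (0.88) and for Cldn7 Camk2n2 (0.87). Itgb4 for Krt19, Cdh6 for Sox9 and Tmem179 for Krt18 were thus among the closest by both measures.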

How the data were processed

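Poly(A)-selected RNA of 32 libraries of cultured mouse islets was measured. Reads were demultiplexed with bcl2fastq 1.8.4 and quantified with kallisto 0.45.0, with GRCm38 as the named build, per the submitters' processing notes. The values the authors deposited are estimated counts, whole numbers for 36595 genes without scaling for depth; the step from transcripts to rounded gene values is not given in the sources used here. Whole numbers were used as deposited. 297 rows repeat the symbol and counts of another row, none of them a member; they were kept.

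Libraries were assigned to groups and sets by their labels, and 0 columns were left without a sample. In R 4.3.3, counts were TMM-scaled and filtered with filterByExpr by group in edgeR 4.0.16, which left 16428 genes. Then 1 robust quasi-likelihood fit was made, with a term for each of the 4 groups and a block for the set and 21 residual degrees of freedom, and p was adjusted by Benjamini-Hochberg over all genes tested, at a threshold of 0.05. SE is the absolute log2 fold change divided by the square root of F. The block rests on the treatment protocol, which states that a set held all 4 groups, and takes the replicate number in the labels as the set. Deviations from the group means of same-set libraries correlated at 0.17 to 0.36 on average (lowest -0.23 to 0.056) between pairs of groups. The same-set library was the closest in the other group for 4 to 6 of 8 libraries. The alternatives were no block, other size factors, no filter, DESeq2 1.42.0, limma 3.58.1 voom, leaving out sets or libraries, and the mitochondrial share as a covariate or a limit of 10%. The scripts were tested on simulated data.

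Levels per kb used the longest principal transcript of GENCODE M21, and the pseudocount for log2 CPM was 0.5. The members and gene lists were chosen with earlier results of these data known. Genes outside the members were named by a rule: up to 4 per list and comparison with the smallest p, and the 3 closest in profile to each member; 1 gene that this rule names is not reported here. Depth per library was 16.1 to 43.7 M counts, and limits for a count of 0 (3 counts) cover counting error only. Intervals for changes rest on the SE of the quasi-likelihood fit, which includes the spread between libraries. Histology was not analysed here.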

Additional observations from a re-analysis of the deposited data

Results flagged for a closer look

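Dixon's 95% critical value was applied to 36 combinations of a member and a group of 8 libraries. In 7 of them the highest or lowest library stood far from the rest. Chance gives about 1 in 20 for independent, normally distributed values. These combinations share libraries and used untransformed CPM, so that rate is only a rough guide here. Among hIAPP libraries at 11.1 mM, that of set 1 was far above the others for Krt19 (14.6 CPM, next 4.06), Spp1 (208 CPM, next 53.7) and Muc1 (4.99 CPM, next 3.12). Among mIAPP libraries at 16.7 mM, that of set 7 was high for Krt18 (261 CPM, next 189) and low for Cldn4 (27.6 CPM, next 49.7), and that of set 6 was high for Krt19 (8.82 CPM, next 4.09). The hIAPP library of set 6 at 16.7 mM was high for Muc1 (3.79 CPM, next 2.66).

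Krt7 responded to glucose differently in the 2 genotypes by the test of the difference, with an interaction of 0.69 ± 0.16 (log2, adjusted p = 0.0103 in edgeR's quasi-likelihood test), in the same direction in 8 of 8 sets. It missed the threshold with the mitochondrial share as a covariate (adjusted p = 0.0781) and among libraries under 10% mitochondrial counts (adjusted p = 0.144).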

How the results depend on the processing

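Limits: Cftr, Sox9, Krt19 and Muc1 are low, so counting error and single libraries weigh on them, and the mitochondrial share is unequal between groups. The calls of Krt7 between genotypes at 16.7 mM, and of Krt7, Krt18, Spp1 and Cldn7 with glucose in hIAPP islets and Spp1 and Cldn7 in mIAPP islets, kept their direction and side of the threshold under all alternatives run.

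Without the replicate block, 1301 in place of 3371 genes were called between genotypes at 16.7 mM and 196 in place of 513 for the interaction. The block changed 2 calls of members, both with glucose in mIAPP islets: without it Krt18 (0.33, adjusted p = 0.0659) and Cldn4 (-0.30, adjusted p = 0.13) missed the threshold. Without it Krt19 turned to 0.0019 between genotypes at 11.1 mM and -0.18 with glucose in hIAPP islets, and Muc1 to -0.087 between genotypes at 16.7 mM. DESeq2 called 35 in place of 21 genes between genotypes at 11.1 mM and 959 for the interaction, and limma voom 946.

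Leaving out a set, or the hIAPP library of set 1 at 11.1 mM (chosen after seeing the data), gave 1623 (set 1) to 3841 genes between genotypes at 16.7 mM, with 1852 without set 6 and 1943 without set 7, and 239 (set 1) to 558 for the interaction, with 280 without set 6. The first count was 2108 when only its mIAPP library of set 7 was left out. Directions turned, none of them called, for Krt18 (-0.14 to 0.045), Sox9 (-0.39 to 0.14), Spp1 (-0.21 to 0.38) and Cldn4 (-0.14 to 0.030) between genotypes at 11.1 mM, Krt19 with glucose in hIAPP islets (-0.039 to 0.64), Muc1 between genotypes at 16.7 mM (-0.11 to 0.27), and Spp1 (-0.083 to 0.58) and Cldn7 (-0.030 to 0.093) for the interaction.

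With the mitochondrial share as a covariate the counts were 752 between genotypes at 16.7 mM, 3181 with glucose in hIAPP islets and 260 for the interaction. Values that turned were Sox9 with glucose in mIAPP islets (0.086), Spp1 between genotypes at 16.7 mM (-0.15) and for the interaction (-0.36), Muc1 (0.42) and Cldn4 (-0.40) with glucose in hIAPP islets, and Cldn7 for the interaction (-0.065). With only libraries under 10% mitochondrial counts, fewer samples left 1133, 10, 3881, 5181 and 7 genes in the 5 comparisons. There Krt7 (-0.065) and Sox9 (0.81) with glucose in mIAPP islets, Sox9 (0.33) and Cldn7 (-0.28) between genotypes at 11.1 mM, Spp1 between genotypes at 16.7 mM (-0.15) and for the interaction (-0.27), and Muc1 (0.0092) and Cldn4 (-0.0066) with glucose in hIAPP islets turned. The cause was not tested.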
